A study of Gallus gallus with 4 samples.

Results

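RASD2 and genes for a dopamine, a serotonin and a purine receptor were followed in the dermal papilla of the growing chicken feather. The members are the 4 rows of the expression table named RASD2, D1A, HTR2B and P2X1, of 15386 genes in all. In an NCBI RefSeq gene table of another assembly, D1A and P2X1 are synonyms of DRD1 and P2RX1, and the other names are current symbols. The members were chosen by their RPKM values in these same libraries, higher in 1 or both posterior libraries than in the anterior ones. Their anterior and posterior values are therefore a description, and no test of that contrast is given for them.

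The tissue was the dermal papilla complex of dorsal feathers in the growing stage, from untreated White Leghorn chickens. The anterior and the posterior side were dissected and sequenced separately, with 2 libraries a side and 4 libraries in all. The labels give no age, sex or number of birds, and nothing says that libraries of a side came from separate birds. Spreads and p-values below measure only the variation between these samples, which may be technical.

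The dermal papilla is the mesenchymal core at the base of the feather follicle, and it instructs the epithelium around it. Feather follicles are also moved by bundles of smooth muscle attached to their walls. RASD2, known as Rhes, is a Ras-like GTPase studied mostly in the mammalian striatum, where it dampens cyclic AMP signalling from G protein-coupled receptors. D1A is a dopamine receptor of the type that raises cyclic AMP through the G protein Gs. HTR2B is a serotonin receptor that signals through Gq and intracellular calcium. P2X1 differs in kind, being an ion channel opened by extracellular ATP, known in mammals from smooth muscle and platelets.

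Expression is given as RPKM, reads scaled to gene length and library size, so levels can be set side by side between genes. The median gene measured 3.75 to 4.88 RPKM over the libraries. Read totals are unknown, but the steps between values under 0.3 RPKM put posterior library 1 at 76.9% of the depth of anterior library 1 and the others at 99.5% to 100.1%. Posterior library 1 also stood apart in content. Of 17 smooth muscle markers listed, 13 were found by name, while ACTA2, CNN1, TPM2 and KCNMB1 were not. The summed level of the 13 was 4679 RPKM in posterior library 1, against 346 to 441 RPKM elsewhere. MYH11, DES and TAGLN made up most of it, at 1222, 1158 and 821 RPKM. All 13 had their highest value in posterior library 1. Of these, 12 reached at least 1.5 times the higher anterior library in it alone, as did 7.11% of 10939 tested genes. The remaining marker, ACTG2, measured 174 RPKM in posterior library 1, against 101 to 148 RPKM elsewhere. Among 10 dermal papilla markers the sum was 103 RPKM in that library, against 182 to 213 RPKM elsewhere. Of these, the versican gene VCAN was present at 38.6 to 74.7 RPKM throughout. LEF-1, TBX18 and ALPL were lowest in posterior library 1, at 10.8, 2.02 and 3.46 RPKM against at least 36.2, 5.50 and 19.3 RPKM. WIF1 was not, at 17.0 RPKM there against 11.9 to 18.1 RPKM, and BMP4 was only slightly lower, at 19.2 against 20.0 to 30.0 RPKM. CORIN, a papilla protease, measured 6.86 and 2.13 RPKM anteriorly and 0.308 and 0.562 RPKM posteriorly. The epithelial keratin KRT14 was present at 369 to 1077 RPKM. In such bulk tissue, fewer cells of a type and less RNA per cell cannot be told apart. Each member is therefore given with and without posterior library 1.

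The members fell into a pair that was high in both posterior libraries and a pair that was high in posterior library 1 alone. A gene was placed in the first class when each posterior library reached at least 1.5 times the higher anterior library. RASD2 and D1A met this, 2 of the 26 that did so among 10939 tested genes (0.238%). HTR2B and P2X1 met it in posterior library 1 only, as did 778 tested genes, or 7.11%. The value nearest above the limit was that of RASD2 in posterior library 2, at 1.83 times the higher anterior library. HTR2B in that library was well below the limit, at 1.12 times. With a limit of 2 times, only D1A remained high in both, and RASD2 moved to the other class.

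RASD2 was the most abundant member in every library. It measured 40.9 and 33.6 RPKM on the anterior side and 96.7 and 74.9 RPKM on the posterior side. The sides did not overlap, and 793 of 10939 tested genes (7.25%) likewise had both posterior libraries above both anterior ones. The posterior libraries differed from each other by 1.29 times. The means were 37.3 ± 5.16 RPKM (SD, n = 2) in anterior and 85.8 ± 15.4 RPKM (SD, n = 2) in posterior tissue, a ratio of 2.30. Posterior library 2 alone stood at 2.01 times the anterior mean and posterior library 1 at 2.59 times. Among all genes of a library, RASD2 ranked at percentile 92.3 and 90.6 in the anterior and at 97.0 and 96.1 in the posterior libraries. It was therefore a well expressed gene on both sides, with the higher levels on the posterior side.

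D1A was expressed at a much lower level with the same ordering of the sides. It measured 2.41 and 1.499 RPKM on the anterior side and 5.04 and 5.44 RPKM on the posterior side. Again the sides did not overlap, and here posterior library 2 was the higher of its side. The posterior mean was 2.68 times the anterior mean, at 5.24 ± 0.286 against 1.95 ± 0.644 RPKM (SD, n = 2 each). The ratio to the anterior mean was 2.58 in posterior library 1 and 2.78 in posterior library 2. It ranked at percentile 38.4 and 33.6 in the anterior and at 56.2 and 53.8 in the posterior libraries.

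HTR2B had nearly all of its posterior excess in posterior library 1. It measured 1.55 and 1.22 RPKM in the anterior libraries, 14.5 RPKM in posterior library 1 and 1.72 RPKM in posterior library 2. Posterior library 2 lay just above the anterior range, and posterior library 1 was 8.43 times posterior library 2. Of the summed posterior signal, 89.4% came from posterior library 1. The posterior mean of 8.13 RPKM carries an SD of 9.07 RPKM (n = 2), larger than the mean itself. Without posterior library 1, HTR2B stood at 1.24 times the anterior mean.

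P2X1 was the extreme case. It measured 1.83 and 1.18 RPKM in the anterior libraries, 71.7 RPKM in posterior library 1 and 0.219 RPKM in posterior library 2. The posterior libraries thus held both the highest and the lowest value, and the sides overlapped. The lowest value is under 0.3 RPKM and rests on few reads. Posterior library 1 was 47.7 times the anterior mean, and posterior library 2 was 0.145 times that mean. Of the summed posterior signal, 99.7% came from posterior library 1. P2X1 ranked at percentile 95.8 of all genes there and at 18.9 in posterior library 2. Removing posterior library 1 turned the direction of its difference.

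**Figure D1:**
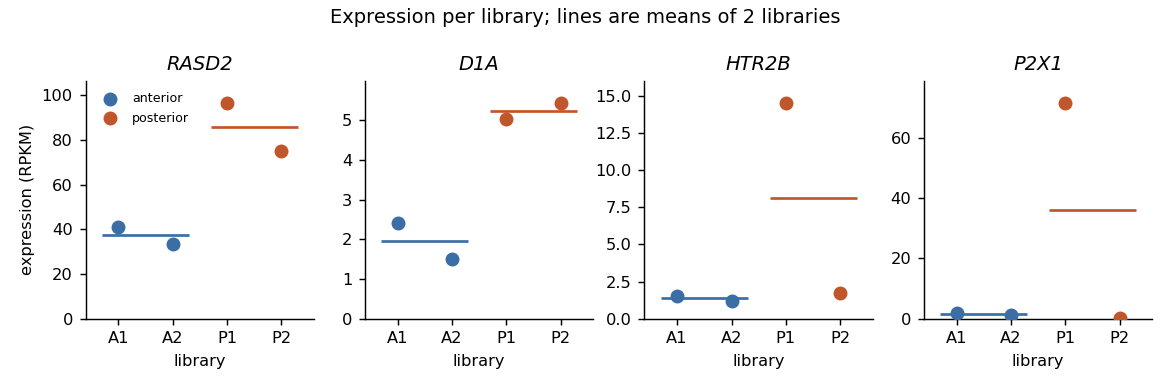
Expression in RPKM (vertical axis, from 0, a scale for each gene) of RASD2, D1A, HTR2B and P2X1 in anterior libraries A1 and A2 and posterior libraries P1 and P2; points are libraries and lines the mean of a side. RASD2 and D1A are high in P1 and P2, while HTR2B at 14.5 RPKM and P2X1 at 71.7 RPKM are high in P1 only.

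On the scale of the fit over all genes, log2(RPKM + 1), the posterior minus anterior difference was 1.18 with a standard error of 0.27 for RASD2 and 1.09 with 0.28 for D1A. It was 1.45 with a standard error of 0.80 for HTR2B and 1.92 with 1.79 for P2X1. The larger differences thus came with the larger errors. All 4 members passed the filter of 1 RPKM in at least 2 libraries, and P2X1 did so without posterior library 2. RASD2, D1A and HTR2B were among the 21 genes, or 0.192% of those tested, whose posterior mean was at least 2-fold higher on this scale with no overlap of libraries. Their choice for high posterior values favoured this. With posterior library 1 left out, 42 genes (0.384%) met that criterion, and the difference was 0.99 for RASD2, 1.14 for D1A, 0.20 for HTR2B and -1.03 for P2X1. Over all genes, limma called 0 at an adjusted p under 0.05 (0.0% of those tested) and 103 at an unadjusted p under 0.05 (0.942%). Of these 103 genes, 25 were higher in posterior and 78 in anterior tissue. With 0 of all tested genes called, 0 passing genes in a list below does not set that list apart. The median difference over all tested genes was -0.11, so most of them had a negative difference. The unadjusted count moved with the libraries, to 164 without posterior library 1, 3236 without posterior library 2 and 62 without anterior library 2, and it was 617 with a replicate block. The scatter of posterior excess sets the members against every tested gene.

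**Figure D2:**
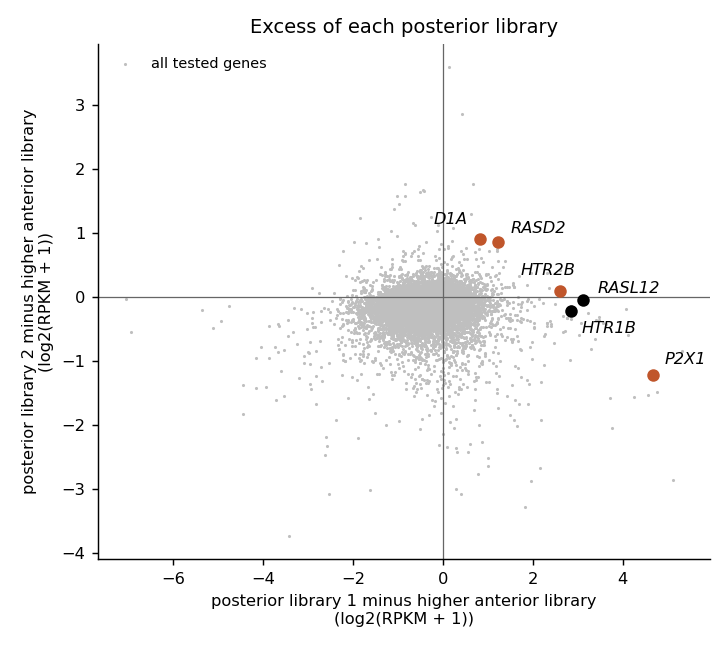
Each tested gene by its excess over the higher anterior library in posterior library 1 (horizontal axis) and in posterior library 2 (vertical axis), as differences in log2(RPKM + 1); orange points are the members and black points HTR1B and RASL12. D1A (0.82 and 0.92) and RASD2 (1.22 and 0.86) lie in the upper right, HTR2B (2.61 and 0.10) lies along the horizontal axis and P2X1 (4.68 and -1.22) lies below it.

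Among the dopamine receptors found in the table, D1A was the main one on the posterior side. Of the 5 in the table, it ranked first in both posterior libraries, at 3.02 and 2.61 times the next receptor, DRD3. In the anterior libraries the order of the pair was not stable, with D1A at 1.65 and 0.771 times DRD3. DRD3, a receptor that lowers cyclic AMP, measured 1.46 and 1.94 RPKM anteriorly and 1.67 and 2.09 RPKM posteriorly, and its sides overlapped (limma adjusted p = 0.972). DRD2, DRD4 and DRD5 stayed at or below 0.415 RPKM in every library.

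The genes described here that make, convert or store dopamine were below the filter. Of the 15 genes listed for dopamine, 11 were found by name in the expression table. The dopa-forming enzyme TH, the transporter SLC6A3 and the receptors D1C and D1D were not found, so their levels are unknown. DDC, which forms dopamine from dopa, was at or below 0.179 RPKM, DBH, which converts dopamine to noradrenaline, at or below 0.0139 RPKM, and the vesicular transporter SLC18A2 at or below 0.218 RPKM. The monoamine oxidase MAOA measured 3.73 to 6.15 RPKM and MAOB 1.16 to 1.92 RPKM. Of the 4 genes of this list tested beside D1A, none passed the limma test in either direction and none had an unadjusted p under 0.05. Their median difference was 0.10 beside -0.11 over all tested genes. Of all tested genes, 0 passed in limma and 0.942% had an unadjusted p under 0.05. Of the melanin enzymes that also use dopa chemistry, TYRP1 measured 3.57 and 5.55 RPKM anteriorly and 0.616 and 1.75 RPKM posteriorly (limma adjusted p = 0.964, unadjusted p = 0.0119). TYR and DCT were below the filter. The order of the sides for TYRP1 was the reverse of that for D1A. Both anterior libraries likewise lay above both posterior ones for 2070 of 10939 tested genes.

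HTR2B was not the only serotonin receptor that was high in posterior library 1. HTR1B, a receptor that inhibits cyclic AMP formation, measured 2.23 and 1.46 RPKM in anterior libraries, 22.3 RPKM in posterior library 1 and 1.77 RPKM in posterior library 2. It was the most abundant of 13 serotonin receptors in that library, with HTR2B second at 0.653 of its level. The relatives of HTR2B that share its Gq coupling also had their highest value in posterior library 1, at lower levels. HTR2C measured 1.97 RPKM in posterior library 1, against 0.156 to 0.202 RPKM elsewhere, and HTR2A 1.43 RPKM against 0.138 to 0.550 RPKM. HTR7, which raises cyclic AMP, measured 1.05 and 1.51 RPKM anteriorly and 1.08 and 1.72 RPKM posteriorly, so posterior library 1 did not stand out.

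Only HTR1B and HTR7 of the 15 other genes of the serotonin list passed the filter, and neither passed the limma test (adjusted p = 0.964 and 0.978). The HTR1B log2 gap was 1.51 (standard error 0.96), and the gene passed (adjusted p = 0.0283) only when posterior library 2 was left out, where posterior library 1 alone stands for its side. Over the alternatives its adjusted p ran from 0.0283 to 0.9999, and without posterior library 1 its log2 gap was -0.023. The serotonin-forming enzymes TPH1 and TPH2 stayed at or below 0.436 RPKM and the serotonin transporter SLC6A4 at or below 0.483 RPKM.

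P2X1 took a different place among the P2X channels in each library. P2RX4 was the most abundant of the others everywhere, at 5.47 and 4.96 RPKM anteriorly and 6.24 and 4.18 RPKM posteriorly, and varied little. P2X1 stood at 0.334 and 0.237 times P2RX4 in the anterior libraries, at 11.5 times in posterior library 1 and at 0.0524 times in posterior library 2. Of the 7 channels it ranked number 2, 4, 1 and 6 in that order. P2RX7, known from immune cells, measured 1.28 to 1.92 RPKM and P2RX6 0.740 to 1.69 RPKM. P2RX2, P2RX3 and P2RX5 were below the filter. None of the 3 others tested passed in limma, and none reached 1.5 times the higher anterior library in either posterior library.

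**Figure D3:**
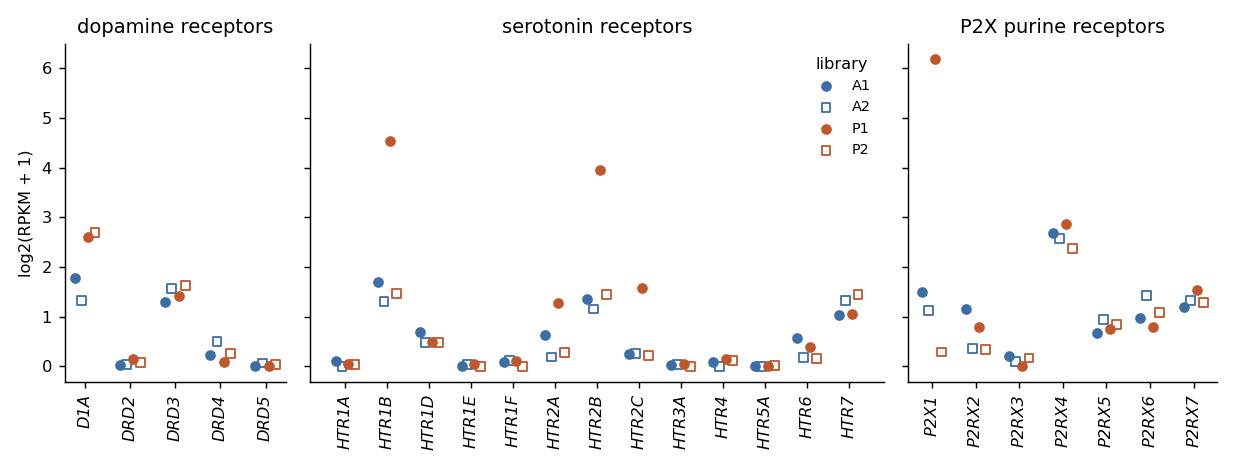
Levels as log2(RPKM + 1) of the dopamine, serotonin and P2X receptors in the table, per library (blue, anterior; orange, posterior; filled circles, library 1; open squares, library 2). D1A is highest in the posterior libraries, whereas HTR1B, HTR2A, HTR2B, HTR2C and P2X1 are highest in posterior library 1, and P2RX4 stays between 4.18 and 6.24 RPKM.

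No other tested purine receptor reached 1.5 times the higher anterior library in a posterior library. Of all tested genes, 7.11% did so in posterior library 1 only and 0.238% in both. Of 7 tested P2Y and adenosine receptors, 0 passed in limma, 2 had a positive difference and the median was -0.39 beside -0.11 over all tested genes. P2RY1, a receptor for ADP, measured 3.90 and 4.28 RPKM anteriorly and 1.43 and 4.58 RPKM posteriorly, so posterior library 1 was its lowest. The adenosine receptor ADORA2B measured 1.31 and 1.22 RPKM against 0.635 and 0.717 RPKM, with the anterior libraries above the posterior (limma adjusted p = 0.964). Of 10939 tested genes, 2070 likewise had both anterior libraries above both posterior ones. ADORA1 spread widely on the anterior side, at 5.56 and 2.31 RPKM, against 2.02 and 3.18 RPKM. Enzymes and channels that release and clear nucleotides had a median difference of -0.11 over 11 tested genes, of which 0 passed. The surface ATPase ENTPD2 measured 48.3 and 42.5 RPKM anteriorly and 23.5 and 38.7 RPKM posteriorly, and the pannexin PANX3 2.01 and 2.24 RPKM against 1.21 and 1.08 RPKM.

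Of the small GTPases and partners listed with RASD2, none of those tested was high in both posterior libraries, a class of 0.238% of all tested genes. RASD1, its closest relative, measured 3.79 and 1.97 RPKM anteriorly and 2.10 and 2.18 RPKM posteriorly, far below RASD2 on the same per-length scale. RASL12 measured 1.22 and 1.22 RPKM in anterior libraries, 18.3 RPKM in posterior library 1 and 1.15 RPKM in posterior library 2. Like HTR2B, it was high in posterior library 1 alone. RASL11A likewise measured 17.7 RPKM in posterior library 1, against 1.57 to 4.64 RPKM elsewhere. REM1 measured 4.93 and 5.71 RPKM against 2.41 and 4.28 RPKM. The inhibitory G proteins that RASD family members are known to act on in mammals were abundant and lowest in posterior library 1. GNAI1 measured 14.2 RPKM there against 28.5 to 32.6 RPKM, and GNAI2 and GNAI3 38.4 and 28.3 RPKM against 51.9 to 61.2 RPKM. Of 10939 tested genes, 6173 likewise had posterior library 1 below both anterior libraries. FNTA, a subunit of the farnesyltransferase that lipidates such GTPases, was also high in posterior library 1 alone, at 21.0 RPKM against 11.8 to 13.7 RPKM. MTOR, a kinase that RASD2 is reported to activate in mammals, measured 4.48 to 7.22 RPKM.

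Of the 15 tested genes of the RASD2 list beside RASD2, 0 passed in limma and none had an unadjusted p under 0.05. Of all tested genes, 0 passed and 0.942% had such a p. The median difference of the list was -0.24, beside -0.11 over all tested genes. Of the 15 genes, 4 were high in posterior library 1 alone and 0 in both posterior libraries. Over all tested genes the shares were 7.11% and 0.238%, so a list of this size would seldom hold a gene of the second class. RASL12 passed (limma adjusted p = 0.0263) only without posterior library 2, and over the alternatives its adjusted p ran from 0.0263 to 0.9999.

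Genes of the signalling machinery downstream of the receptors were expressed on both sides. Of 22 tested genes of the Gs and cyclic AMP list, 0 passed in limma, 9 had a positive difference, and the median was -0.08 (-0.11 over all tested genes). PDE4D, a phosphodiesterase that degrades cyclic AMP, was the only one of them that was high in both posterior libraries, as were 0.238% of all tested genes. It measured 2.94 and 3.93 RPKM anteriorly and 7.49 and 5.94 RPKM posteriorly, a log2 gap of 0.80 (standard error 0.28) (limma adjusted p = 0.964, unadjusted p = 0.0299). The G protein gene GNAS measured 19.5 to 27.9 RPKM and its relative GNAL 5.74 to 8.59 RPKM. The cyclase ADCY6 was lowest in posterior library 1, at 3.14 RPKM against 6.95 to 8.76 RPKM.

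In the Gq and calcium list, 0 of 18 tested genes passed in limma and the median was -0.07 (-0.11 over all tested genes). Within it, 3 genes were high in posterior library 1 alone, as were 7.11% of all tested genes. The calcium-dependent kinase CAMK2G measured 30.6 RPKM there, against 5.74 to 6.16 RPKM elsewhere. RGS2, which shortens Gq signalling, measured 42.1 RPKM against 9.40 to 15.1 RPKM, and the calcium release channel ITPR1 13.3 RPKM against 4.54 to 7.25 RPKM. ITPR3 had the opposite order, with 2.86 RPKM in posterior library 1, against 5.27 to 8.77 RPKM elsewhere.

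RASD2 and D1A are expressed together in the striatum of mammals, so other genes known from striatal projection neurons were listed. Of the 6 tested beside RASD2 and D1A, 0 passed in limma and the median difference was -0.10 (-0.11 over all tested genes). The opioid peptide gene PENK was very abundant, at 647 and 899 RPKM anteriorly and 525 and 973 RPKM posteriorly, and did not separate the sides. PPP1R1B, the dopamine-regulated phosphatase inhibitor DARPP, stayed at or below 0.613 RPKM and TAC1 at or below 0.0233 RPKM. The phosphodiesterase PDE10A measured 0.584 to 1.14 RPKM. Receptors for other amines gave 4 tested genes, none of which passed, with a median of -0.35 (-0.11 over all tested genes). Among these, ADRA2A measured 2.86 and 6.86 RPKM anteriorly and 0.874 and 3.08 RPKM posteriorly, and CHRM4 1.38 and 1.82 RPKM against 0.263 and 1.08 RPKM. Only 1 of the 4 had a positive difference, HRH1 at 0.40, with 1.93 and 2.66 RPKM against 2.53 and 4.27 RPKM. The difference of ADRA1A was -0.03.

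The genes closest in pattern were found by the root mean square difference between centred log2(RPKM + 1) profiles over the 4 libraries, among 7565 named genes that reached 5 RPKM in at least 1 library. For RASD2 the closest were LRRC32 at 0.17, D1A at 0.18, GLIPR1L at 0.18, F10 at 0.19 and COLEC12 at 0.21. For D1A they were SFRP4 at 0.11, COLEC12 at 0.14, RASD2 at 0.18, MMP2 at 0.21 and GLIPR1L at 0.25. RASD2 and D1A appear on each other's list, as their choice for high values in both posterior libraries favours. D1A reached 5 RPKM only in the posterior libraries, at 5.04 and 5.44 RPKM, so it entered the search through them alone. SFRP4, a secreted WNT antagonist, measured 37.0 and 22.8 RPKM anteriorly and 53.3 and 64.1 RPKM posteriorly. COLEC12, a scavenger receptor, measured 16.1 and 13.1 RPKM against 27.0 and 27.0 RPKM.

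The lists for HTR2B and P2X1 hold genes that peak in posterior library 1, as closeness to such a profile requires. Of them, CORO6, RYR2, TMEM255B, CNTFR, PCP4 and FHL2 reached 5 RPKM only there, so they entered the search through that library alone. Next to HTR2B stood CORO6 at 0.10, the calcium release channel RYR2 at 0.12, TMEM255B at 0.14, PRUNE2 at 0.14 and CNTFR at 0.16. RYR2 measured 5.86 RPKM in posterior library 1, against 0.105 to 0.212 RPKM elsewhere. CORO6 and CNTFR measured 5.69 and 7.07 RPKM there, against at most 0.0984 and 0.167 RPKM elsewhere. PRUNE2 measured 38.6 RPKM there, against 5.29 to 7.84 RPKM. HTR2B itself measured 14.5 RPKM there, against 1.22 to 1.72 RPKM. The added 1 RPKM narrows the ratios of low genes, so profiles close on this scale can differ widely in fold. Next to P2X1 stood the muscle actin ACTA1 at 0.16, PCP4 at 0.16, the smooth muscle myosin MYH11 at 0.22, FHL2 at 0.30 and FHL1 at 0.44. All of these had the same order of libraries as P2X1, with posterior library 1 highest, then anterior library 1, anterior library 2 and posterior library 2. MYH11 measured 50.5 and 25.3 RPKM in anterior libraries, 1222 RPKM in posterior library 1 and 16.8 RPKM in posterior library 2.

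**Figure D4:**
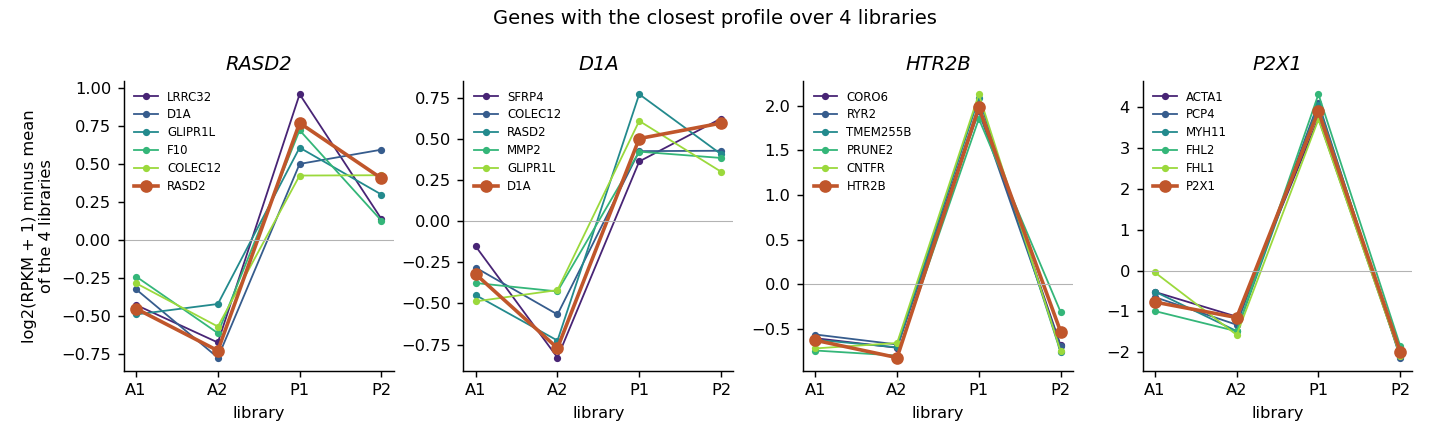
Profiles over the 4 libraries (A, anterior; P, posterior) as log2(RPKM + 1) minus the mean of the gene, for each member (thick orange) and its 5 closest genes (thin lines). The RASD2 and D1A profiles are high in P1 and P2, while those of HTR2B and P2X1 peak in P1, P2X1 together with ACTA1 and MYH11.

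Levels relative to MYH11, the smooth muscle marker of highest mean level, are given as a description. MYH11 is among the genes closest to P2X1, so a narrow range of their ratio follows from that closeness. The P2X1 level was 3.62% and 4.64% of that of MYH11 in the anterior libraries, 5.86% in posterior library 1 and 1.31% in posterior library 2. This is a 4.49-fold range, where P2X1 itself ranged 328-fold and MYH11 72.9-fold. Both P2X1 ranges depend on its 0.219 RPKM in posterior library 2, a level that rests on few reads. HTR2B ranged 11.9-fold on its own and 8.65-fold relative to MYH11, from 1.19% in posterior library 1 to 10.3% in posterior library 2. A narrower range against MYH11 is favoured for any gene that, like MYH11, peaks in posterior library 1. RASD2 and D1A ranged 2.87-fold and 3.63-fold on their own and 56.5-fold and 78.8-fold relative to MYH11.

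Summed markers of other cell types differed far less between posterior library 1 and the rest than those of smooth muscle did. Thrombocyte markers, 8 in the table, summed to 17.9 RPKM in posterior library 1 and to 15.3 to 22.1 RPKM in the others, and the defining integrin ITGA2B was at or below 0.295 RPKM. Nerve and Schwann cell markers, 11 in the table, summed to 11.02 RPKM there and to 14.4 to 16.0 RPKM in the others. The 7 endothelial markers summed to 164 RPKM against 118 to 129 RPKM. Among these, PECAM1 was highest there, at 70.1 RPKM against 33.5 to 40.5 RPKM, and KDR and TIE1 were lowest there, at 2.42 RPKM against 4.54 to 5.38 RPKM and at 3.47 RPKM against 7.09 to 8.35 RPKM. The 8 leukocyte markers summed to 371 RPKM in posterior library 1 and to 313 to 366 RPKM in the others. Most of that sum was 1 gene, II, at 254 to 314 RPKM. Of the 8, 4 were highest in posterior library 1, among them SPI1 at 22.6 RPKM against 6.90 to 9.65 RPKM. PTPRC was another, at 8.53 RPKM against 4.59 to 5.88 RPKM, while CD3E and CD3D were not. The 6 melanocyte markers summed to 15.5 RPKM against 26.3 to 39.0 RPKM, and the 6 keratinocyte markers to 1290 RPKM against 831 to 2502 RPKM. Whether smooth muscle in posterior library 1 plays any part in the HTR2B, HTR1B, RASL12 and P2X1 values was not tested.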

How the data were processed

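The deposited values are RPKM per gene and library, made by the authors. TopHat2, Partek and the build galGal4 are named in the submitters' processing notes, and the file name gives Ensembl 78. Versions, settings and the counting rule are not given in the sources used here. Libraries were made with the Illumina TruSeq RNA kit, per the labels' protocols, which does not mark strand, so antisense reads are not separated. Steps between values under 0.3 RPKM, to ratios of whole numbers up to 5 (tolerance 0.002 in natural log), held for 44.9% to 46.6% of low genes, which was too few to rebuild counts.

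The 10939 genes that reached 1 RPKM in 2 or more libraries were fitted as log2(RPKM + 1) with limma 3.58.1 in R 4.3.3 (eBayes with trend, two-sided, Benjamini-Hochberg over all tested genes, no covariates). This scale understates changes of low genes. Python 3.11.15 and matplotlib 3.10.9 did the rest.

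The members and lists were chosen with earlier results of these data known. Receptor genes were all nameable. Other lists were sampled by smallest p, by role or, where a gene shows spread, after its values were seen. With 2 libraries a side, exact permutation cannot pass 0.05. Alternatives covered pseudocount, scaling, filter, eBayes options, replicate block, class limit and each library left out. Some genes of the lists enter the counts but are not reported here by name.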

Additional observations from a re-analysis of the deposited data

How the results depend on the processing

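RASD2, D1A and HTR2B kept a higher posterior level under every alternative run. They were chosen for high values in 1 or both posterior libraries, and their posterior libraries both lay above both anterior ones. Leaving out a library or changing the pseudocount therefore could not turn their direction, and only a change of scaling could have. Leaving out 1 library at a time gave differences in log2(RPKM + 1) of 0.99 to 1.31 for RASD2, 0.87 to 1.32 for D1A, 0.20 to 2.71 for HTR2B and -1.03 to 4.87 for P2X1, whose direction turned without posterior replicate 1 (-1.03). With a pseudocount of 0.1 RPKM the difference of D1A was 1.41. A class limit of 2 times left 1 member high in both posterior libraries. The count of genes at least 2-fold higher in posterior tissue without overlap, 21, became 42 with a pseudocount of 0.1 RPKM, 35 after median ratio scaling, 36 after quantile normalization and 42 to 388 with a library left out. The median difference over all genes was -0.11 as deposited, 0.0057 after median ratio scaling and -0.0074 after quantile normalization. Calls in limma numbered 0 except for 0 to 226 with a library left out, where 226 came without posterior replicate 2, and 2 with the replicate block. The columns number the libraries 1 and 2 on each side, but no label says that a number marks a shared bird or day. Deviations of the libraries numbered 1 correlated at 0.49 over genes. Among 31 other genes of the receptor and RASD2 lists, 382 of 384 alternative fits left the call as it was, the exceptions being HTR1B and RASL12 without posterior replicate 2. A library left out leaves a lone library on its side, assumed to vary like the other side. Levels under about 0.3 RPKM rest on few reads, and their order is not firm.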
